A study of Mus musculus with 9 samples.

Results

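Fetal mouse ovaries cultured for 24 hours with estradiol-17β (E2) were compared with ovaries cultured with vehicle. The 6 libraries of these groups, of 9 in the series, were taken by the title each carries, 3 to E2 and 3 to vehicle, and 16360 of the 23420 genes in the count tables were tested. All groups were wild-type ovaries of the CD1 strain, an outbred stock, collected on embryonic day 16 and kept on porous culture inserts in α-MEM without phenol red, a dye with weak oestrogenic activity, and with insulin, transferrin, selenium and linoleic acid. E2 was given at 3.67 µM. The remaining 3 libraries, from ovaries given recombinant human BMP2 at 50 ng/ml, entered the fit for the estimate of spread and are named where E2 was tested against them. The treatment has no field of its own in the labels, so the groups rest on title prefixes, with E2 spelled out in the series title and C taken as vehicle. No label tells whether libraries of one group are separate animals or cultures, so p-values reflect only how far these libraries spread, which may be technical.

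Oestrogen acts through the nuclear receptors ESR1 and ESR2, which bind DNA as pairs at a palindromic element, the oestrogen response element, or reach genes through other factors such as AP-1 and SP1. In the fetal mouse ovary germ cells enter meiosis inside cysts, pregranulosa cells gather around them, and WNT4 and RSPO1 hold the somatic cells on the ovarian path. Cyst breakdown and the first follicles follow around birth, a step that oestrogen is known to influence in rodents.

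The genes of all libraries summed to 30418674 to 31778161 counts per library with E2 and 30860223 to 34253992 with vehicle, at which a gene at 1 CPM (counts scaled to a common library total, with trimmed mean of M-values factors, TMM) rests on about 30 reads. Markers of the labelled tissue were present, with the pregranulosa gene Foxl2 at 55.7, 55.8 and 57.9 CPM and the germ cell gene Ddx4 at a mean of 177 CPM with vehicle. Reads in no annotated gene took 14.5% to 14.8% of each E2 library and 13.6% to 13.9% of each vehicle library, a separation whose part in the results was not tested. Correlations of log2 CPM were 0.9982 to 0.9985 within the groups and 0.9911 to 0.9918 between them.

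E2 changed many genes and most of them little. At an adjusted p under 0.05 (edgeR's quasi-likelihood test with Benjamini-Hochberg adjustment) 32.3% of the genes tested were called, 15.8% higher and 16.5% lower with E2. Of the 5278 calls, 3348 (63.4%) were below 1.2-fold. Calls over 1.5-fold made up 2.76% of the genes upward and 1.59% downward, and 677 of them (95.2%) had groups that did not overlap, against 41.2% of all genes tested. Larger changes leaned upward: 189 genes were over 2-fold higher and 48 over 2-fold lower, and over 3-fold the counts were 52 and 3. Most calls over 1.5-fold were in genes of low level. Under a mean of 1 CPM 107 were higher and 61 lower, and from 1 to 10 CPM 213 and 160. From 10 to 100 CPM the counts were 108 and 38, and at 100 CPM or more 23 and 1. The share called followed abundance, from 8.56% of genes under a mean of 1 CPM to 53.7% of those at 100 CPM or more. Over all genes tested the median log2 fold change was -0.0026, and this and the shares above are the background for each list below.

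**Figure D1:**
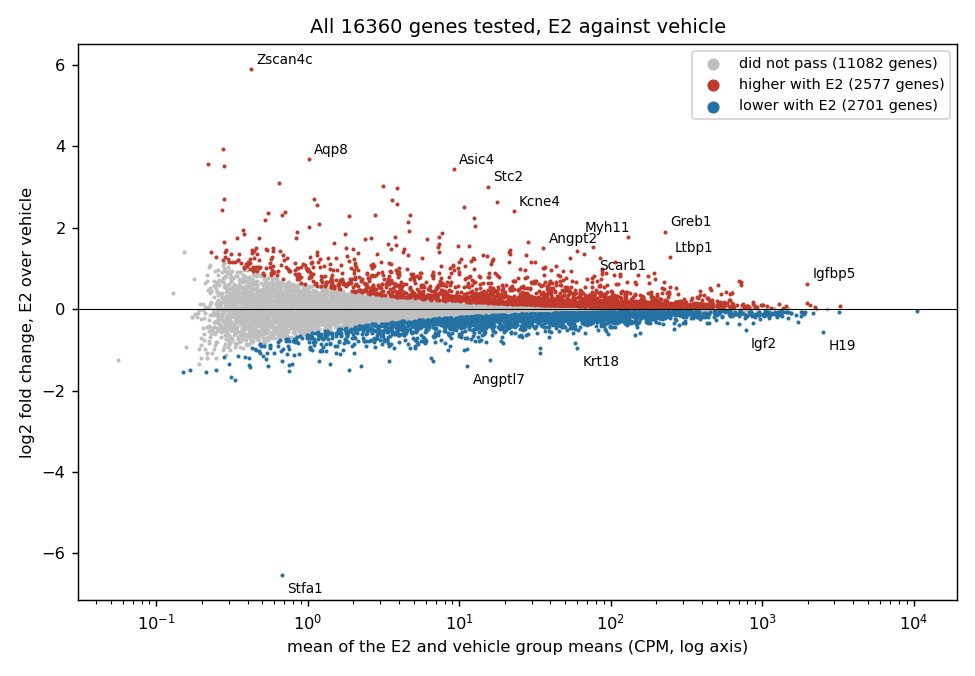
Log2 fold change of E2 over vehicle against the mean level in CPM (log axis), 1 point per gene tested, with genes called higher in red, called lower in blue and the rest in grey. Above 100 CPM the tail of larger changes lies on the upper side, with Greb1, Myh11, Ltbp1 and Igfbp5 among them, while Zscan4c and Stfa1 at the extremes rest on a few counts in 1 of the groups.

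Genes that respond to oestrogen in other tissues moved in both directions. Of 22 on this list, 9 were higher and 4 lower, with a median log2 fold change of 0.06, and 6 of the 9 were over 1.5-fold. Greb1, a cofactor of oestrogen receptor in breast cells, stood at 360, 368 and 353 CPM with E2 and 95.2, 99.6 and 93.8 CPM with vehicle (log2 fold change 1.91 ± 0.024 SE, adjusted p = 1.4e-106). The groups lay far apart, and E2 also exceeded BMP2 (log2 fold change 1.64, adjusted p = 2.1e-100). Stc2, a secreted inhibitor of the protease PAPPA, was at 27.7, 26.8 and 27.8 CPM with E2 against 3.74, 3.63 and 2.87 CPM with vehicle. Lower members included Igfbp4, which holds IGF away from its receptor, and Ccnd1, the cyclin D1 gene, with log2 fold changes of -0.40 and -0.31. Muc1, Ctsd, Xbp1, C3 and Areg, which oestrogen raises in breast or uterus, were among 9 members that did not pass. Of 16 receptors and cofactors 3 were lower, the orphan receptor gene Esrra (-0.25), Pgrmc1 (-0.11) and the coactivator gene Ncoa1 (-0.08). None was higher by edgeR (3 at an unadjusted p under 0.05 and 0 by DESeq2), and 3 were higher without vehicle replicate 2. Ncoa1 passed neither by DESeq2 nor when E2 replicate 2 or 3 or vehicle replicate 1 or 2 was left out.

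The regulatory sequence near the gene starts was read for 11864 of the tested genes from RefSeq promoter windows (GRCm38.p6, 250 bases before to 50 after the start), on both strands. The palindrome GGTCA, any 3 bases, then TGACC was in 2 of these windows (0.0169%). One lies before Zscan4c, a gene of the 2-cell embryo, and the other before Hbb-y, an embryonic globin gene that did not pass (log2 fold change 0.08). They are shown because they are the only matches, with the palindrome and its spacer in capitals, on the strand of the gene.
Zscan4c, chr7:11005495-11005528, + strand: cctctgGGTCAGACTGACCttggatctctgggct
Hbb-y, chr7:103853274-103853316, - strand: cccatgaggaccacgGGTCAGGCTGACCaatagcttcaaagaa
Among the 298 windows of genes over 1.5-fold higher 1 held it (0.336%, exact 95% binomial interval 0.0085% to 1.86%) and among the 173 of genes over 1.5-fold lower none did, which allows up to 2.11%. That 1 window is the one of Zscan4c, with 26, 21 and 31 counts with E2 and 0, 0 and 1 with vehicle. Zscan4c entered the test only through the E2 libraries, so this share gives no comparison between the sets.

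Single binding hexamers, AGGTCA or its reverse complement TGACCT, were in 12.7% of all windows, 14.4% of those over 1.5-fold higher (interval 10.6% to 18.9%) and 13.9% of those over 1.5-fold lower. The AP-1 form TGANTCA was in 5.29% of all windows and in 8.39% (5.50% to 12.1%) and 8.09% (4.50% to 13.2%) of the higher and lower sets. GGGCGG, the core of SP1 sites, was in 60.5% of all windows, 39.6% (34.0% to 45.4%) of the higher and 42.2% (34.7% to 49.9%) of the lower set. Over all calls of any size its share ran the other way, at 62.2% of windows of genes called higher and 66.3% of those called lower, against 58.6% of those not called, and these differences were not tested. Matches are descriptions of these windows, not sites of binding. A further 27 genes were read singly: those with the largest rises in fold or in CPM, and Greb1, Pgr, Nrip1, Esr1 and Esr2, taken by name. Of these, Esr1 and Esr2 did not pass (log2 fold change 0.096 and 0.097). Windows were found for 21 of the 27, and 3 held the hexamer, beside the 12.7% of all windows. Those of Greb1 and Oxtr, the oxytocin receptor gene, are shown with it in capitals.
Greb1, chr12:16800957-16800986, - strand: ccaagcaacaaaTGACCTctgtccccggag
Oxtr, chr6:112489906-112489935, - strand: gagaggacaggcAGGTCAgtgccagagtgc
The hexamer starts 88 bases before the gene start in Greb1 and 98 before it in Oxtr, and the third window, of the kallikrein gene Klk1, held 3 matches.

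Genes at several levels of the WNT pathway were called, in both directions, and the activity of the pathway was not measured. Of 16 WNT and R-spondin genes, 2 were higher and 5 lower (median -0.17). Wnt4, the ligand that keeps the ovary from the testis path, was at 152, 146 and 145 CPM with E2 and 107, 112 and 109 CPM with vehicle (log2 fold change 0.43 ± 0.026, adjusted p = 1.0e-32). It was also higher than with BMP2 (0.35). Rspo1, which strengthens WNT signals in the same cells, went the other way at 59.8, 60.5 and 58.2 CPM against 72.5, 75.6 and 72.7 CPM (-0.31 ± 0.034, adjusted p = 2.7e-14). Neither gene's groups overlapped. Wnt2b (-0.32) and Wnt5a (-0.23) fell as well, and of 20 receptors 4 were higher and 7 lower, with Lgr5, a receptor for R-spondins, at -0.33 and its relative Lgr6 at 0.46.

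Secreted WNT antagonists rose and fell by the widest margins of these groups, with 6 of 13 higher and 3 lower (median 0.24). Wif1, which binds WNT ligands outside the cell, was at 5.24, 6.13 and 5.37 CPM with E2 and 0.614, 0.486 and 0.958 CPM with vehicle, and Sfrp4, a secreted decoy receptor, at 2.54, 2.48 and 2.91 CPM against 0.848, 0.810 and 1.11 CPM. Frzb, a further decoy, was 2.20-fold higher (log2 fold change 1.13 ± 0.26, adjusted p = 2.3e-04) at low levels. The relatives Sfrp5 (0.462, 0.603 and 0.253 against 1.23, 1.17 and 0.989 CPM) and Sfrp2 (10.2, 11.2 and 12.6 against 15.1, 16.1 and 15.8 CPM) were lower. No library of these 5 genes crossed between the groups, and antisense exons overlap 16.1% of the exon bases of Sfrp2. Over the whole list the summed level was 162 to 167 CPM with E2 and 163 to 166 CPM with vehicle, so the groups overlapped, with Wif1, Sfrp4 and Frzb all under 10 CPM in every library.

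Genes that WNT signalling raises in many tissues were mostly lower, with 8 of 14 lower and 2 higher (median -0.14). Sp5, a direct target, was at 11.7, 14.4 and 15.3 CPM with E2 and 18.7, 18.6 and 17.5 CPM with vehicle (-0.40 ± 0.067, adjusted p = 3.2e-07), and Nkd1, a feedback inhibitor, was at -0.28 ± 0.033 (adjusted p = 5.8e-13). Tnfrsf19 fell by 0.16 on the log2 scale at over 500 CPM in every library. Axin2, the usual reporter gene, did not pass (89.9, 90.6 and 91.7 against 89.0, 92.7 and 87.7 CPM), and its groups overlapped. None of the 8 lower genes was over 1.5-fold.

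**Figure D2:**
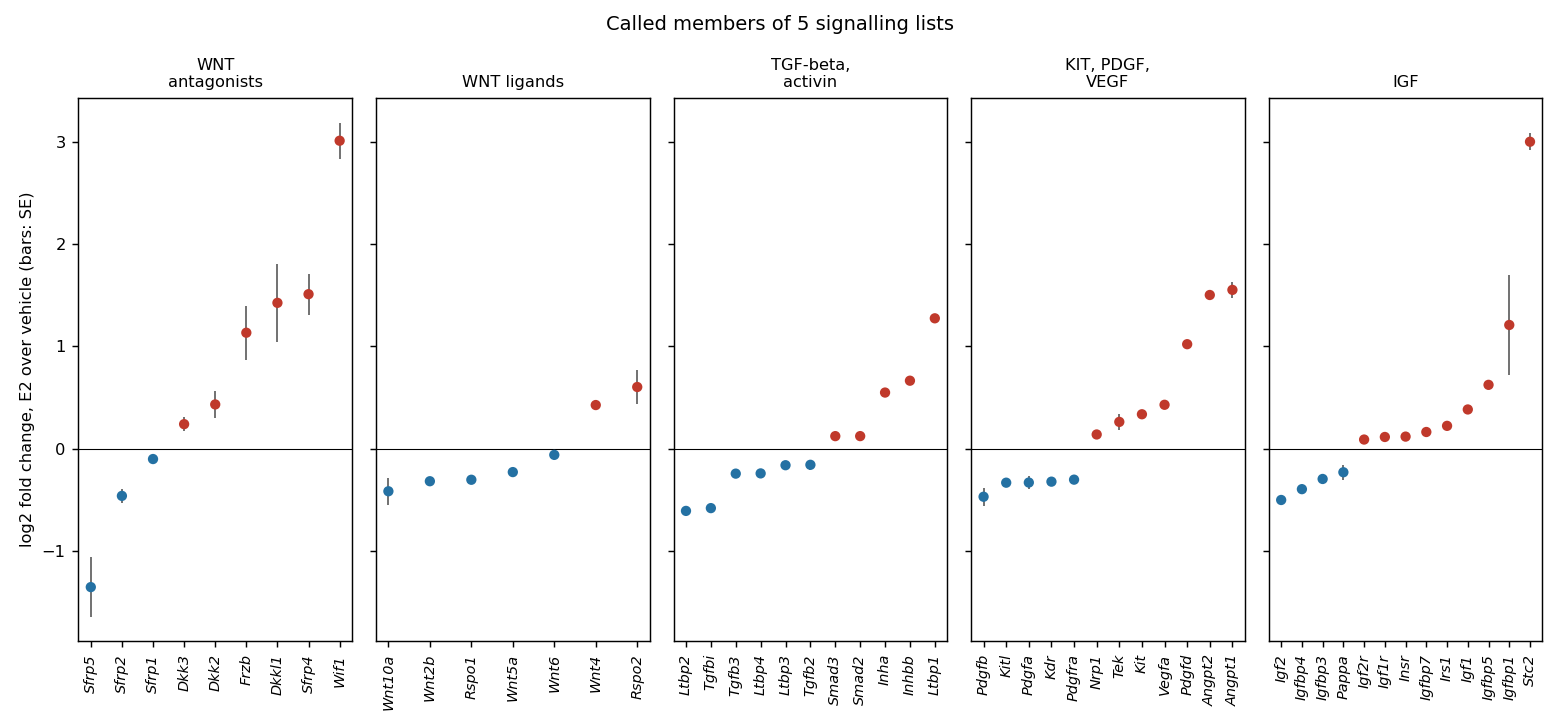
Log2 fold change of E2 over vehicle with its SE for each called member of 5 signalling lists, on a common axis, red for higher and blue for lower. Within the lists of WNT antagonists, TGFβ and activin, angiogenic and KIT factors and IGF, at least 1 gene rose by more than 1 on the log2 scale beside others that fell, and among WNT ligands Wnt4 and Rspo2 were the members above 0.

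Within TGFβ and activin signalling, 5 of 25 genes were higher and 6 lower (median -0.02), and among those called Ltbp1, Inhbb, Ltbp2, Tgfbi and Inha had the largest changes. Ltbp1, which stores latent TGFβ in the matrix (chromosome 17, 75005568 to 75392512, + strand, GRCm38), was at 348, 343 and 349 CPM with E2 and 147, 141 and 141 CPM with vehicle (log2 fold change 1.28 ± 0.022, adjusted p = 1.4e-96). Its relative Ltbp2 fell, from 34.4, 35.2 and 33.5 CPM with vehicle to 22.1, 22.7 and 22.8 CPM with E2, so the 2 genes moved in opposite directions without any overlap. Tgfbi, a matrix protein that TGFβ induces, was at 126, 124 and 125 CPM against 189, 187 and 186 CPM (-0.58 ± 0.023).

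Of the inhibin subunit genes Inhbb and Inha rose, and Inhba did not pass. Inhbb, the βB subunit of activin and inhibin, was at 43.1, 46.0 and 46.2 CPM with E2 and 27.8, 29.6 and 28 CPM with vehicle (0.66 ± 0.044, adjusted p = 5.0e-29), and Inha, the subunit found in inhibin alone, at 60.5, 59.4 and 58.8 CPM against 41.4, 40.2 and 40.6 CPM (0.55 ± 0.038). Both also exceeded BMP2, by 0.84 and 0.47 on the log2 scale. Fst (follistatin, which traps activin) and Amh did not pass. Among 24 BMP ligands, receptors and SMADs 4 were higher and 7 lower. Bmp3, which opposes BMP signals, was 1.88-fold higher (5.21, 5.52 and 4.93 against 3.04, 2.63 and 2.66 CPM), and Gdf9, the growth factor of oocytes, was 2.14-fold lower at 1.02, 1.14 and 0.948 CPM against 2.13, 2.56 and 2.01 CPM. Of 10 BMP target genes 5 were higher and 2 lower, with Id1, a helix-loop-helix inhibitor, at 0.40 ± 0.023 and Hey1 at 0.42 ± 0.058.

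Notch and Hedgehog genes split. Of 20 Notch genes 5 were higher and 5 lower. The ligand gene Dll1 was at 9.83, 10.3 and 10.6 CPM with E2 and 5.21, 4.80 and 4.79 CPM with vehicle (1.05 ± 0.092, adjusted p = 3.3e-20), with 20.6% of its exon bases under antisense exons. Dlk1, an imprinted relative of the ligands, was at 76.1, 77.8 and 73.8 CPM against 115, 121 and 111 CPM (-0.61 ± 0.029). In the Hedgehog pathway, which carries signals from pregranulosa cells to stroma, the 3 usual target genes Ptch1 (0.29 ± 0.059), Gli1 (0.39 ± 0.10) and Hhip (0.44 ± 0.097) were higher. The coreceptors Cdon (-0.32), Boc (-0.30) and Gas1 (-0.29) and the transcription factor Gli2 (-0.51) were lower, and the ligands Dhh and Ihh did not pass. The libraries of Ptch1 overlapped, at 20.6 to 25.2 CPM with E2 and 18 to 20.7 CPM with vehicle.

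Several growth factor genes of vessels rose. On the list of KIT, PDGF and VEGF genes 7 of 20 were higher and 5 lower (median -0.02). Angpt2, a ligand of the endothelial receptor TEK that loosens vessels (chromosome 8, 18690263 to 18741562, - strand), was at 53.5, 52.5 and 52.7 CPM with E2 and 18.4, 18.1 and 19.5 CPM with vehicle (1.5 ± 0.046, adjusted p = 4.8e-64). Its counterpart Angpt1, which steadies them, was at 15.9, 17.0 and 19.2 CPM against 5.50, 5.25 and 7.01 CPM (1.55 ± 0.082), with 14.2% of its exon bases under antisense exons. Both stood apart from vehicle in every library and from BMP2 (1.29 and 1.52). Vegfa, the main endothelial growth factor, was 1.35-fold higher and Pdgfd 2.03-fold higher (50.1, 49.2 and 47.7 against 24.5, 22.7 and 25.1 CPM). Kdr, the VEGF receptor, went down to 85.0, 87.6 and 91.2 CPM from 110, 111 and 109 CPM (-0.32 ± 0.029), and Pdgfra, a receptor of stromal cells, by 0.30.

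KITL and its receptor, the pair through which pregranulosa cells support oocytes, moved apart. Kitl was at 770, 778 and 779 CPM with E2 and 977, 949 and 1007 CPM with vehicle (-0.33 ± 0.017, adjusted p = 6.8e-40), and Kit at 88.3, 84.3 and 88.3 CPM against 67.5, 68.0 and 71.1 CPM (0.34 ± 0.031, adjusted p = 2.5e-18). In bulk tissue, fewer cells of a type and less RNA per cell cannot be told apart. Mast cells share the expression of Kit with oocytes, and their protease genes, given below with the cell markers, were lower. The part of either cell type in the level of Kit was not tested.

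In the IGF system 9 of 18 genes were higher and 4 lower (median 0.08). Igfbp5, a binding protein for IGFs (chromosome 1, 72857932 to 72874884, - strand), had the largest rise in CPM among the genes called higher, at 2383, 2396 and 2386 CPM with E2 and 1535, 1555 and 1557 CPM with vehicle (0.62 ± 0.015, adjusted p = 5.1e-78). Igf1 was 1.30-fold higher (269, 277 and 278 against 210, 205 and 216 CPM). Igf2, the fetal growth factor, was at 643, 642 and 643 CPM against 899, 901 and 932 CPM (-0.50 ± 0.017), and 62.8% of its exon bases are shared with another gene of the same strand. The receptors Igf1r, Insr and Igf2r rose by 0.09 to 0.12.

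Igf2 shares an imprinted domain on chromosome 7 with H19, a noncoding RNA (142575529 to 142578143, - strand), which lost the most CPM of all genes tested. H19 was at 2065, 2055 and 2029 CPM with E2 and 2998, 3014 and 2983 CPM with vehicle (-0.55 ± 0.014, adjusted p = 1.7e-73), and with BMP2 at a mean of 3094 CPM. Of 23 imprinted genes 10 were lower and 5 higher (median -0.03), and those lower included Dlk1, Mest, an enzyme of mesoderm (-0.35), and Cdkn1c, a brake on the cell cycle (-0.35). Antisense exons overlap 23.1% of Mest and 30.6% of Cdkn1c. The summed level of the list was 8261 to 8305 CPM with E2 and 9797 to 9829 CPM with vehicle, and most of that difference came from H19 and Igf2. Meg3 (0.21), Kcnq1ot1 (0.17) and Igf2r (0.09) were among the higher ones.

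Further ligands were more mixed. In the EGF family Tgfa (29.5, 28.8 and 27.8 against 18.2, 16.2 and 19.2 CPM, log2 fold change 0.68 ± 0.055) and Btc (0.50 ± 0.11) rose with the receptor Egfr (0.24), 3 of 14, and 3 were lower. Of 18 FGF genes 2 were higher, with Fgf1 1.86-fold up, and 5 lower. For retinoic acid, which starts meiosis in the fetal ovary, 4 of 15 were higher and 6 lower (median -0.08). Its synthesis enzyme Aldh1a2 was at 265, 260 and 261 CPM with E2 and 186, 187 and 183 CPM with vehicle (0.50 ± 0.021, adjusted p = 2.4e-47). Stra6, which takes up retinol (22.4, 21.9 and 20.5 against 31.7, 34.4 and 34.5 CPM), and the binding protein Crabp1 (3.40, 3.46 and 3.70 against 7.22, 6.09 and 6.98 CPM) were lower.

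Hormones and neuropeptides with low levels gave some of the wider changes, with 6 of 25 tested genes higher and 3 lower (median 0.17). Another 17 on that list had too few counts to test. Tac2, the neurokinin B precursor, was at 3.73, 3.56 and 3.67 CPM with E2 and 0.819, 1.43 and 1.11 CPM with vehicle (1.71 ± 0.17, adjusted p = 4.2e-16), while Tacr3, its receptor, was lower (-0.81 ± 0.15). Npy1r, a receptor for neuropeptide Y, was 2.08-fold higher and Npr3, which clears natriuretic peptides, 1.79-fold higher. For the dynorphin system both the precursor Pdyn (0.528, 0.476 and 0.158 against 1.02, 0.973 and 1.33 CPM) and the receptor Oprk1 (24.6, 26.8 and 26.2 against 38.8, 37.9 and 40.5 CPM) were lower without overlap.

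Of 18 genes of steroid synthesis and breakdown 7 were higher and 6 lower (3 lower by DESeq2, median 0.03), with Star, which brings cholesterol into mitochondria, at -0.50 and the steroid dehydrogenase gene Hsd3b1 at 0.44. Scarb1, which takes up cholesterol from lipoproteins, was at 100, 99.8 and 98.1 CPM with E2 and 56.6, 56.4 and 55.8 CPM with vehicle (0.82 ± 0.032, adjusted p = 1.8e-51). Hsd17b2, which inactivates E2, was 1.58-fold higher (10.1, 10.9 and 9.70 against 6.99, 6.65 and 5.78 CPM), and Cyp1b1, which hydroxylates it, 1.22-fold lower. Cyp19a1, the aromatase that makes oestrogen, was at most 0.159 CPM in any E2 library and 0.486 in any vehicle library (adjusted p = 0.024), and did not pass without E2 replicate 1 or without vehicle replicate 2. Among 17 other steroid receptor genes and their targets 3 were higher and 6 lower, with the vitamin D receptor gene Vdr at -0.49 ± 0.059.

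Among the lipid genes called, more were higher than lower. The same held for all genes tested at a mean of 100 CPM or more, with 824 of 2645 higher and 597 lower. Of 24 cholesterol synthesis genes 11 were higher and 3 lower (median 0.06), among them Fdft1, the squalene synthase (0.35 ± 0.026, with 18.3% of its exon bases under antisense exons). Soat1, which esterifies cholesterol for storage, is on neither lipid list and was named for its rise in CPM. It was at 873, 894 and 891 CPM with E2 and 553, 552 and 570 CPM with vehicle (0.67 ± 0.017, adjusted p = 1.0e-72). Of 23 fatty acid genes 8 were higher and 4 lower (median 0.02). Elovl6, an elongase of long fatty acids, was at 114, 119 and 116 CPM against 59.0, 56.3 and 60.6 CPM (0.99 ± 0.031), and Mlxipl, a glucose-sensing activator of lipid synthesis, at 13.2, 11.6 and 12.1 against 5.18, 6.09 and 6.09 CPM (1.09 ± 0.086). Elovl5 and Acacb rose by 0.36 and 0.47. Srebf1, a main regulator of lipid synthesis, did not pass.

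**Figure D3:**
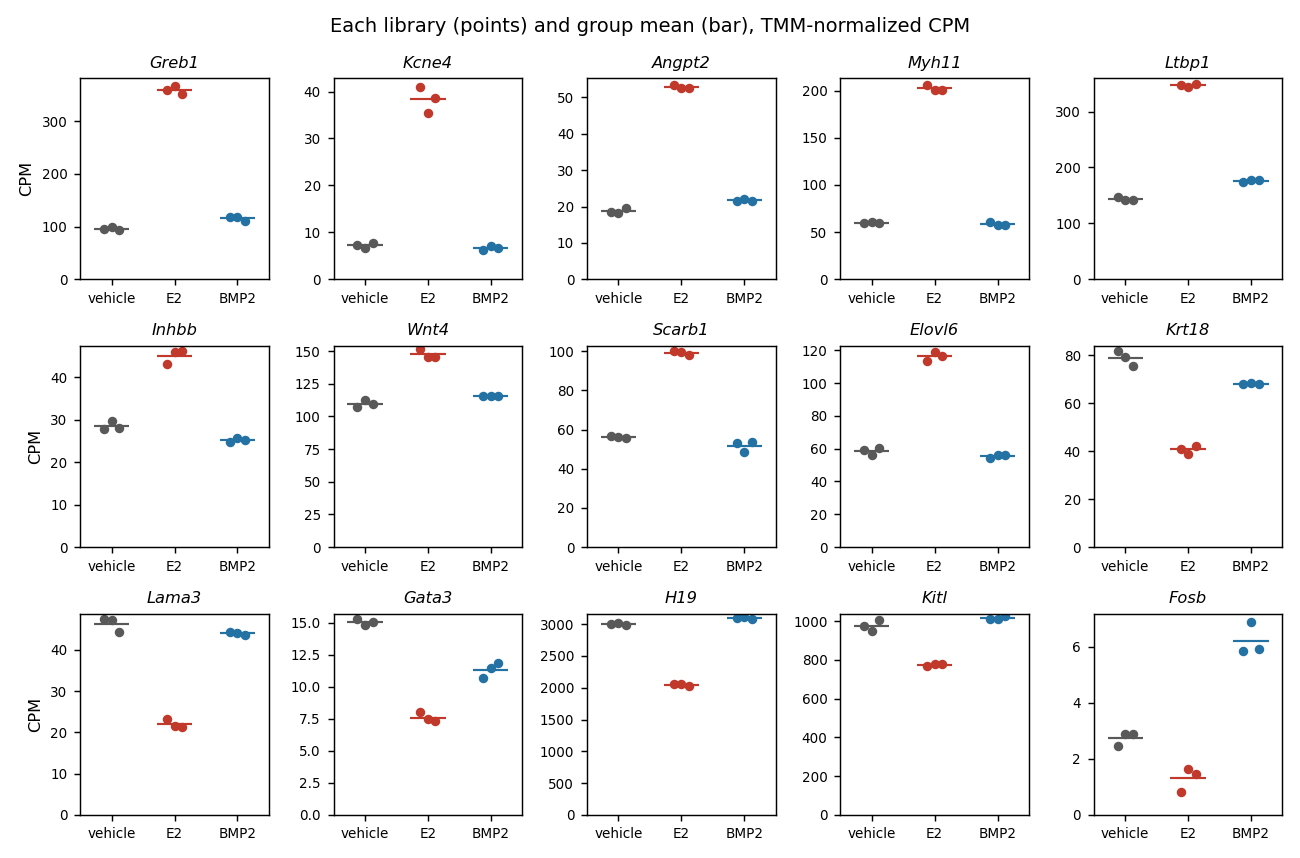
Level in CPM of 15 genes in each library, with a bar at each group mean, for vehicle, E2 and BMP2 (n = 3 each); every axis starts at 0. In each of these genes the 3 E2 points lie apart from the 3 vehicle points, above them for the first 9 panels and below them for Krt18, Lama3, Gata3, H19, Kitl and Fosb.

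Genes for ion channels held several of the highest fold changes. On the list of potassium and nonselective cation channels 11 of 45 were higher and 7 lower (median 0.08), and 9 of the 11 were over 1.5-fold. Kcne4, an accessory subunit that dampens potassium channels, was at 41.1, 35.5 and 38.7 CPM with E2 and 7.22, 6.65 and 7.82 CPM with vehicle (2.41 ± 0.065, adjusted p = 4.7e-71). Kcnk1, a leak channel, was at 19.8, 18.1 and 16.5 CPM against 3.13, 3.44 and 3.06 CPM, whereas the related leak channel Kcnk3 was at 8.87, 9.75 and 9.57 CPM against 22.7, 22.1 and 22.5 CPM (-1.25 ± 0.064). The cation channel gene Trpc4 rose as well (6.6 to 7.29 against 0.819 to 0.896 CPM). By symbol alone, potassium channel genes did not share a direction: 8 of 74 were higher and 15 lower. Of 34 sodium, calcium and chloride channels and aquaporins, 8 were higher and 6 lower, with Aqp5, a water channel of secretory epithelia, at 9.30, 8.51 and 10.9 against 5.38, 6.29 and 5.13 CPM.

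Collagen and other matrix genes moved both ways by member. Of 38 collagens 10 were higher and 12 lower, and the most abundant fibrillar ones fell: Col3a1 was at 1566, 1537 and 1515 CPM with E2 and 1908, 1938 and 1923 CPM with vehicle (-0.32 ± 0.015), and Col1a1 at -0.35 ± 0.023. Col22a1, a collagen of tissue junctions (41.0, 38.6 and 39.8 against 15.1, 16 and 16.2 CPM), and Col8a1, made by vessel walls (9.76, 10.8 and 11.6 against 3.22, 3.66 and 4.20 CPM), rose by 1.33 and 1.54. Among 37 basement membrane and other matrix genes 12 were higher and 17 lower (median -0.12). The laminin chains split, with Lama3, of epithelial basement membranes, at 23.2, 21.6 and 21.3 against 47.4, 47.1 and 44.3 CPM (-1.07 ± 0.045, adjusted p = 2.7e-48) and Lama2, of muscle and vessels, at 70.0, 64.6 and 66.3 against 48.2, 50.3 and 47.3 CPM (0.46 ± 0.036). Thbs1 (0.60) and Ogn (0.64) were higher and Fbn1 (-0.34) and Sparc (-0.22) lower.

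Integrin genes, the receptors for that matrix, were more often higher, at 8 of 23 with 1 lower. Itga6, a laminin receptor chain found on germ cells, was at 656, 659 and 664 CPM with E2 and 490, 491 and 488 CPM with vehicle (0.43 ± 0.018), and Itgb3 was 1.70-fold higher. The lower one was Itga3 (-0.33). After correction for GC content and transcript length 3 integrins were lower in place of 1. Of 37 matrix proteases and inhibitors 15 were lower and 6 higher, among them Timp2 (-0.35) and Mmp11 (-0.36).

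Markers of the surface epithelium fell together. Of 14 tested, 12 were lower and 1 higher (median -0.46), and the summed level was 1600 to 1613 CPM with E2 and 1789 to 1847 CPM with vehicle; every tested marker had counts in all libraries. Krt8, a keratin of simple epithelia, was at 116, 113 and 112 CPM against 178, 180 and 169 CPM (-0.63 ± 0.025, adjusted p = 2.4e-51), Krt19 was at -0.45 and Krt7 at -0.51. Their partner Krt18 was at 41.1, 38.6 and 42.3 CPM with E2 against 81.6, 79.4 and 75.6 CPM with vehicle, and lower with E2 than with BMP2 as well (-0.74, adjusted p = 7.4e-42). Msln, the mesothelin gene, was at 3.79, 2.83 and 3.10 against 6.20, 6.65 and 5.96 CPM. The higher member was Aldh1a2, described above with retinoic acid.

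Epithelial junction genes had 11 of 36 lower and 7 higher (median -0.00017). Epcam, an adhesion molecule of epithelia and germ cells, was at 30.2, 29.7 and 30.1 against 49.6, 46.1 and 48.6 CPM (-0.68 ± 0.042), Jup, a plaque protein, at -0.53, and Cldn4 at 1.98, 2.13 and 1.96 against 4.77, 5.25 and 4.67 CPM. Cdh1 did not pass, and Cdh13 and Cldn10 were higher (0.96 and 1.26). Across all keratin genes tested, 7 of 19 were lower and 2 higher.

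Markers of the mesonephros, the tissue attached to the fetal ovary, were also low in part, with 6 of 13 lower and 1 higher (median -0.12) and a summed level of 476 to 481 CPM with E2 and 503 to 511 CPM with vehicle. Gata3, of the duct, was at 8.02, 7.49 and 7.30 against 15.3, 14.8 and 15.1 CPM (-0.99 ± 0.076, adjusted p = 3.5e-24). Sall1, a kidney and mesonephric factor, went up to 45.2, 42.0 and 44.2 CPM from 19.9, 19.8 and 19.4 CPM (1.15 ± 0.048), and the duct genes Pax2 and Pax8 did not pass. Whether less attached tissue bears on the epithelial genes was not tested.

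**Figure D4:**
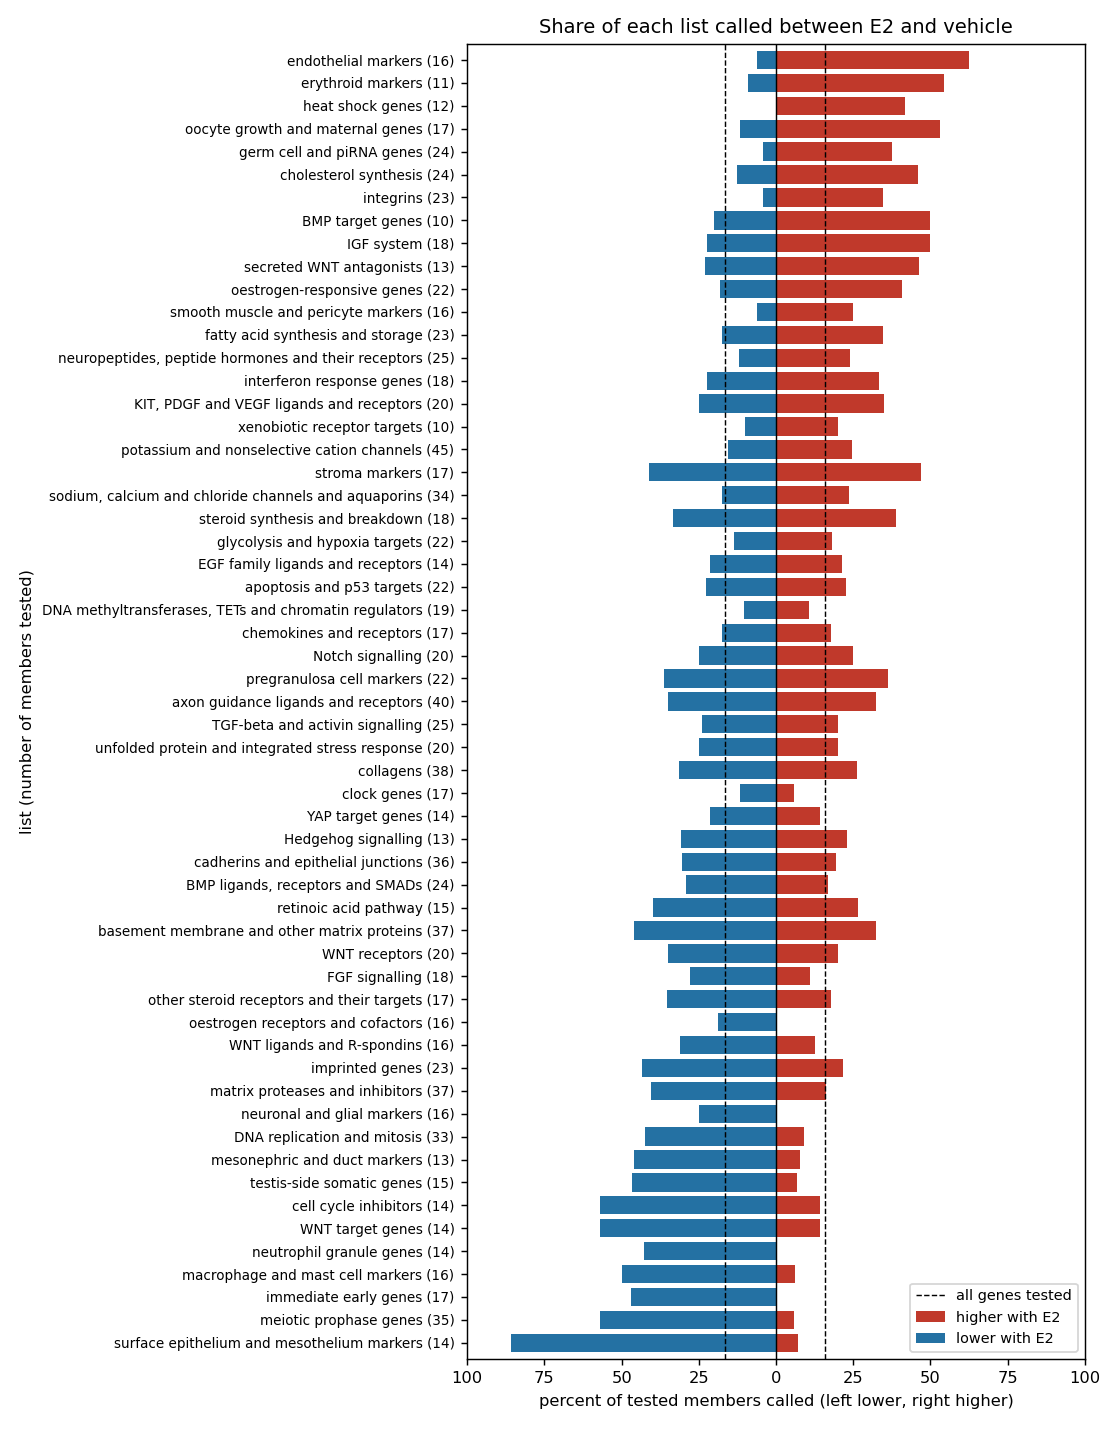
Percent of the tested members of each list that were called higher (right, red) or lower (left, blue) with E2, with the share over all genes tested as dashed lines at 15.8% and 16.5%. Lists are sorted by the difference between the sides, from endothelial markers at the top (10 of 16 higher, 1 lower) to surface epithelium and mesothelium markers at the bottom (1 of 14 higher, 12 lower).

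Somatic cell identity genes of the ovary did not move one way. Of 22 pregranulosa markers 8 were higher and 8 lower (median -0.03), and none of them was over 1.5-fold. Foxl2 did not pass (57.5, 62.4 and 59.1 against 55.7, 55.8 and 57.9 CPM, adjusted p = 0.07), and its groups overlapped. It passed as higher after the correction for GC content, without E2 replicate 1 and without vehicle replicate 3, with log2 fold changes of 0.10 to 0.12. On the list of genes of the testis side 7 of 15 were lower and 1 higher (median -0.33), with Ptgds at 2.18, 2.00 and 1.58 against 3.60, 3.53 and 3.80 CPM and Sox9 at 6.46, 8.13 and 7.24 against 10.4, 9.27 and 9.70 CPM. Amh, Dmrt1 and Fgf9 did not pass. The summed level of that list was higher with E2 (291 to 301 against 273 to 286 CPM), and Nr5a1, its most abundant member and shared with ovarian cells, was at 0.25. Of 17 stroma markers 8 were higher and 7 lower, with Lum at 0.35.

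Vessel genes were more often higher than lower, with 10 of 16 endothelial markers higher and 1, Kdr, lower (median 0.24). The summed level was 286 to 298 CPM with E2 and 273 to 281 CPM with vehicle. Robo4, a guidance receptor of endothelium, was at 20.6, 17.8 and 18.2 against 11.6, 12.6 and 11.9 CPM (0.65 ± 0.066, adjusted p = 3.0e-16), Sox18 at 4.35, 5.11 and 5.69 against 2.89, 2.92 and 1.98 CPM, and Pecam1 at 49.7, 46.9 and 51.2 against 39.2, 40.1 and 39.6 CPM. Ptprb, the endothelial phosphatase that holds TEK in check, lies outside the lists and was 2.71-fold higher (88.4, 85.8 and 86.6 against 31.5, 33.6 and 31.1 CPM). Plvap, Eng and Flt1 did not pass.

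Among smooth muscle and pericyte markers 4 of 16 were higher and 1 lower (median 0.01, summed level 1008 to 1038 CPM with E2 and 832 to 863 CPM with vehicle). Most of the difference in that sum came from Myh11. Myh11, the smooth muscle myosin heavy chain, was at 205, 200 and 201 CPM with E2 and 59.3, 60.4 and 59.2 CPM with vehicle (1.76 ± 0.028, adjusted p = 6.2e-101), and the 2 subunits of the vascular potassium channel sensitive to ATP, Abcc9 (32.2, 29.8 and 30.5 against 18.5, 17.2 and 18.8 CPM) and Kcnj8 (0.61 ± 0.091), rose too. The contractile genes Acta2, Cnn1, Des, Actg2 and Smtn did not pass, and Tagln was lower (-0.13).

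Blood cell markers differed by lineage. Of 11 erythroid markers 6 were higher and 1 lower (median 0.43, summed level 161 to 168 CPM with E2 and 133 to 139 CPM with vehicle). Slc4a1, the anion exchanger of red cells, was at 11.5, 10.5 and 12.1 against 6.81, 5.48 and 6.21 CPM. The adult α-globin gene Hba-a1 is listed at 0 counts in all 6 libraries. Reads that did not align uniquely were counted to no gene, so this 0 cannot be read as absence. Of 16 macrophage and mast cell markers 8 were lower and 1, Kit, higher (median -0.31, summed level 181 to 187 and 187 to 190 CPM). The mast cell proteases Cma1 (3.69, 4.25 and 4.04 against 7.11, 5.97 and 6.46 CPM), Cpa3 and Tpsb2 were lower by 0.62 to 0.83 on the log2 scale, and lay further below BMP2, whose mean for Cma1 was 13.3 CPM. Csf1r and Aif1 did not pass. Of 14 neutrophil granule genes 6 were lower and none higher by edgeR (1 at an unadjusted p under 0.05 and 0 by DESeq2, median -0.34, summed level 62.7 to 68.1 and 83.6 to 86.5 CPM), with S100a8 at -0.56 ± 0.067. At most 1 of these granule genes was higher under any alternative setting.

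Stfa1, a stefin of neutrophils, fell the most by fold of all genes tested, with 0, 0 and 1 reads with E2 and 130 in all with vehicle. The ratio of the summed counts, scaled by library size, was 125 (95% counting interval 22 to 4964). Its close copies Stfa2 and Stfa3 did not pass (adjusted p = 0.76 and 0.28), and reads shared among these near-identical genes may be split between them. Neuronal and glial markers had 4 of 16 lower and none higher by edgeR (0 at an unadjusted p under 0.05 and by DESeq2, median -0.20). Their summed level was 166 to 170 CPM with E2 and 201 to 204 CPM with vehicle. After correction for GC content and transcript length 1 was higher. Nefm, Nefl and Prph, filaments of neurons, were among those lower, and the neural crest gene Sox10 had at most 1 count in all 6 libraries. Dbh, with 14 counts with E2 and 1 with vehicle, had too few to test. Nefm was at 0.891, 0.794 and 1.26 against 2.57, 2.5 and 3.21 CPM, with 19.2% of its exon bases under antisense exons. The part of any of these cell types in other results was not tested.

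More germ cell genes rose than fell, and more meiotic genes fell than rose. Of 24 germ cell and piRNA genes 9 were higher and 1 lower (median 0.10), and of 17 oocyte genes 9 higher and 2 lower (median 0.24). The piRNA genes Tdrd9, a helicase (179, 180 and 176 against 116, 117 and 115 CPM, 0.62 ± 0.024), and Piwil2 (116, 119 and 115 against 87.5, 84.9 and 84.8 CPM, 0.44 ± 0.028) did not overlap between the groups. Against BMP2, Tdrd9 was 0.11 higher and Piwil2 did not differ past the threshold (0.06, adjusted p = 0.09). Of 35 meiotic prophase genes 20 were lower and 2 higher (median -0.15), none over 1.5-fold. Prdm9, which places recombination sites, was at 48.7, 45.7 and 48.9 against 60.2, 62.8 and 63.9 CPM (-0.38 ± 0.036, adjusted p = 7.6e-18), and Rec8, a meiotic cohesin, at 20, 18 and 18.4 against 25.4, 24.2 and 25.2 CPM. Smc1b, another meiotic cohesin and one of the most abundant on the list, was 1.13-fold higher, and Sycp1, Sycp3 and Spo11 did not pass. Stra8, which starts meiosis, was lower by 0.33. The summed level of the list was 3657 to 3674 CPM with E2 and 3731 to 3881 CPM with vehicle.

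Cell cycle genes shifted by small amounts. Of 33 genes of DNA replication and mitosis 14 were lower and 3 higher (median -0.07), none over 1.5-fold, with the largest among them Cdc6 at -0.28 and Ccne2 at -0.25. Inhibitors of the cycle fell as well, at 8 of 14 with 2 higher (median -0.18), including Cdkn1c, Cdkn1a (-0.29) and Cdkn1b (-0.18). Btg2, which slows division, was at 48.6, 47.9 and 43.7 against 64.8, 64.4 and 64.2 CPM (-0.47 ± 0.036), and Gadd45g was the larger rise (18.5, 16.8 and 16.9 against 11.8, 11.7 and 9.95 CPM). Of 22 apoptosis and p53 genes 5 were higher and 5 lower. Bcl2l1, which protects cells, was 1.23-fold higher and Bcl2l11, which kills them, 1.24-fold lower (64.1, 69.3 and 66.8 against 54.7, 53 and 54.7 CPM, and 18.8, 17.1 and 18.7 against 22.3, 22.2 and 22.9 CPM), while Mcl1, Bcl2 and Bbc3 did not pass.

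Immediate early genes, which respond within an hour to stimuli and to tissue handling, were lower where they were called, at 8 of 17 with none higher by edgeR (0 at an unadjusted p under 0.05 and by DESeq2, median -0.33). Fos was at 3.79, 4.35 and 4.20 CPM with E2, 6.87, 7.29 and 7.17 CPM with vehicle and a mean of 16.1 CPM with BMP2 (E2 over vehicle -0.79 ± 0.10, adjusted p = 2.2e-11). Atf3 (9.07, 8.22 and 7.58 against 12.6, 13.8 and 14.3 CPM) and Egr1 (28.2, 27.2 and 26.6 against 35.5, 37.4 and 37.3 CPM) followed the same order, with E2 lowest and BMP2 highest. The 3 members of the Nr4a family did not pass.

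Of 12 heat shock genes 5 were higher and none lower by edgeR (0 at an unadjusted p under 0.05 and by DESeq2), led by Hsph1 (0.30 ± 0.024), and Hspa1a, Hspa1b and Dnajb1, which heat induces most, did not pass. Among amino acid stress genes Asns, the asparagine synthetase, was at 39.4, 42.9 and 43.7 against 55.9, 57.5 and 53 CPM (-0.40 ± 0.039) and Sesn2 was at -0.43, while Slc7a11, the cystine carrier, rose (0.56 ± 0.098). Of 20 genes on that list 4 were higher and 5 lower. Hexokinases Hk1 and Hk2 rose (0.47 and 0.41) among 22 glycolysis and hypoxia genes with 4 higher and 3 lower, or 8 higher after correction for GC content and transcript length. The 18 interferon genes had 6 higher and 4 lower (1 lower without E2 replicate 2), with Ifit3 at 0.66, and the 17 clock genes 1 higher and 2 lower. Axon guidance genes had 13 of 40 higher and 14 lower, with the repellents Sema3a (-0.44) and Sema3d (-0.66) and the ligand Efnb2 (-0.52) among those that fell. Chemokines and their receptors had 3 of 17 higher and 3 lower, YAP targets 2 of 14 higher and 3 lower, xenobiotic targets 2 of 10 higher and 1 lower, and chromatin regulators 2 of 19 higher and 2 lower.

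Genes for the ribosome fell by small and even amounts. Of 80 ribosomal protein genes of the cytosol 66 were lower and none higher by edgeR (0 at an unadjusted p under 0.05 and by DESeq2, median -0.12), and none passed the test against a 1.2-fold change. Rps4x was at 1684, 1712 and 1708 CPM with E2 and 1863, 1890 and 1936 CPM with vehicle (-0.16 ± 0.015), but not different from BMP2 past the threshold (-0.01, adjusted p = 0.82). After correction for GC content and transcript length the counts were 49 lower and 1 higher (median -0.08). The 78 nuclear genes of oxidative phosphorylation had 36 lower and 5 higher (median -0.07), or 26 lower and 9 higher after that correction. The 76 ribosomal protein genes of mitochondria had 6 lower and none higher by edgeR (0 at an unadjusted p under 0.05 and by DESeq2, median -0.02), or 9 lower and 3 higher after it. Many ribosomal protein genes have processed copies elsewhere in the genome, so reads that align to several places may be lost or split.

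**Figure D5:**
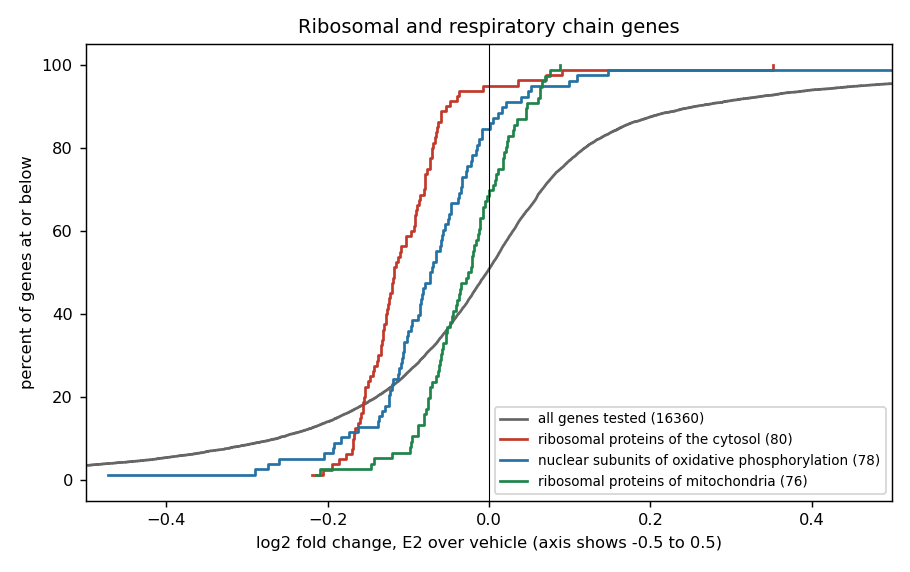
Cumulative percent of genes at or below each log2 fold change, E2 over vehicle, for all genes tested (grey), ribosomal proteins of the cytosol (red), nuclear subunits of oxidative phosphorylation (blue) and ribosomal proteins of mitochondria (green). The red curve crosses 50% at -0.12, the blue at -0.07, the green at -0.02 and the grey at -0.0026, and the family curves are narrower than that of all genes.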

How the data were processed

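Whole-number read counts per gene were deposited by the authors, 1 table per library. Per the submitters' processing notes, TopHat2, HTSeq, DESeq2 and the build mm10 were used; for versions, annotation and strand setting: not given in the sources used here. Per the labels' protocols, RNA with an integrity number over 9 went into TruSeq RNA v2 libraries, which do not mark strand, so overlapping antisense genes cannot be told apart. The 5 summary rows of each table (38.2% to 39.7% of its total) were left out.

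The test was that of edgeR 4.0.16 (R 4.3.3): filterByExpr defaults (minimum count 10, total 15), TMM scaling, a mean per group over all 9 libraries (6 residual degrees of freedom), robust quasi-likelihood F tests and Benjamini-Hochberg adjustment over 16360 genes. The biological coefficient of variation was 1.87%, and no pair of libraries within a group agreed within sampling noise (chi-square per gene 1.62 to 2.39). Levels are TMM-scaled CPM. Log2 fold changes are given with their SE. Coordinates and exon overlaps are from GENCODE vM21 (GRCm38, which is mm10). The scripts were tested on simulated data. Intervals on counts and shares are exact at 95% and cover counting error only.

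The comparison and the 57 lists (1273 entries) were chosen with earlier results of these data known, and lists are described by counts and medians without a test. A rule fixed which genes could be named: the oestrogen receptors and 3 known targets; among called genes (at least 1 CPM in one group, no overlap, no predicted genes) the 15 with the highest and 15 with the lowest fold change and the 8 with the largest gain and 8 with the largest loss of CPM; the 5 called genes with the smallest p in every list; the 2 with the largest change in every symbol family. Some list members are not reported here. List members that did not pass are named to complete a pathway. Ddx4, Gli1, Hhip, Igf1r, Insr, Igf2r, Meg3, Kcnq1ot1, Tacr3, Acacb, Fosb, Lama2, Krt7, Msln, Cldn10, Sox9, Ptprb, Rec8, Stra8 and Cdc6, the copies of Stfa1 and the Zscan4 genes, Hunk, Gpam, Gas6, Rasd1 and Fndc1 were chosen after their values were seen. Alternatives were DESeq2 1.42.0, median-ratio factors, other filters and thresholds, only the groups compared, a replicate block, removal of the trend on GC content and length, a test against 1.2-fold (glmTreat) and leaving out each library.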

Additional observations from a re-analysis of the deposited data

How the results depend on the processing

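Against a change of 1.2-fold, 531 genes were higher and 346 lower with E2, and 171 of those over 1.5-fold lower passed, against 2577, 2701 and 260 in the test of any change; the stricter question accounts for the fewer calls. DESeq2 called 2107 higher and 2054 lower. Without 1 library at a time the calls ranged from 2218 to 2529 higher and 2271 to 2516 lower, and over 1.5-fold from 427 to 448 higher and 240 to 264 lower. All other alternatives kept these 4 counts within 1.5 times. A longer form of the oestrogen response element was in 0 windows of genes over 1.5-fold higher and in 0 of all 11864 windows, so it gives no comparison. Replicate numbers did not pair the libraries (correlations of deviations between libraries with the same number 0.0013, -0.022 and 0.032). A replicate block gave 2705 genes higher and 2807 lower, 451 and 263 of them over 1.5-fold. Of the genes given as not passing, Ctsd and Sycp3 were called higher after the correction for GC content and transcript length, Ctsd also with the block and without vehicle replicate 1, and Stfa3 was called lower without E2 replicate 2. Windows of 5 kb and 10 kb either side of gene starts were not searched, as no genome sequence was used here. At under 1 CPM 8.56% of genes were called, so small changes in such genes were not detectable at this depth.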

Other observations

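Genes outside the lists and the naming rule, chosen after their values were seen, added a few patterns. The Zscan4 cluster on chromosome 7, whose genes mark the 2-cell embryo and a fraction of embryonic stem cells, was read with E2 and hardly without it. Zscan4c had 26, 21 and 31 counts with E2, 0, 0 and 1 with vehicle and 3, 4 and 1 with BMP2, a ratio of E2 to vehicle of 81.3 (95% counting interval 14.2 to 3251). Zscan4d had 12, 15 and 11 counts with E2 and 1 in each vehicle library (ratio 13.2, interval 4.19 to 66.8). Zscan4c and Zscan4d entered the test only through the E2 libraries, so these ratios describe the counts and are no test. Zscan4f had 5, 8 and 4 counts with E2 and 1 in all with vehicle, and Zscan4a 5, 2 and 6 and none. Zscan4b had 2, 0 and 2 counts with E2 and none with vehicle, and Zscan4e was listed at 0 in all. These copies are nearly identical, so the reads cannot be given to 1 of them with certainty.

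Several further genes outside the lists, at low to high levels, also stood apart from both vehicle and BMP2. Hunk, a kinase, was at 111, 115 and 113 CPM with E2 and 38.2, 39.4 and 40.9 CPM with vehicle. Gpam, which starts triglyceride synthesis, was at 150, 147 and 147 against 81.0, 81.5 and 80.8 CPM, and Gas6, a ligand of the TAM receptors, at 530, 535 and 543 against 393, 382 and 377 CPM. Rasd1, a small G protein induced by steroids, rose from 4.39, 4.60 and 4.05 to 20.2, 20.1 and 21.3 CPM. Fndc1, a matrix protein, was at 23, 23.5 and 23.8 CPM with E2 against 44.9, 46.4 and 44.2 CPM.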
